A study of Homo sapiens with 15 samples.

Results

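Integrins, CD44 and other leukocyte adhesion molecules were followed as a list of 37 genes: 17 integrin alpha chains, 7 integrin beta chains and 13 other adhesion molecules. The last group includes TLN1 and FERMT3, which act on integrins from inside the cell. Members were found by gene symbol in each of 2 deposited expression tables. The table of the HSP90 knockouts held 28 of the 37 members among 17769 genes, and these 28 were among the 17039 genes expressed highly enough to be tested. The table of PU-H71 resistance held all 37 among 60510 genes, and 29 of them were among the 16503 genes tested.

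Integrins are heterodimers of an alpha and a beta chain that bind extracellular matrix or counter-receptors on other cells, and the pairing of the chains largely sets which ligand is bound. Talin-1 (TLN1) and kindlin-3 (FERMT3) bind the cytoplasmic tails of beta chains and switch the receptor to its ligand-binding state. In blood cells ITGB2 pairs with ITGAL, ITGAM and ITGAX, ITGA4 pairs with ITGB1 or ITGB7, CD44 binds hyaluronan, and SELPLG (PSGL-1) binds selectins.

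RNA was sequenced from K562 cells, a BCR-ABL1-positive chronic myeloid leukemia line, in 5 groups of 3 libraries. The empty vector (EV) control, labelled wild type, and the HSP90α-KO and HSP90β-KO cells were untreated, and the protocol, written alike for all samples, has Cas9 and a guide RNA brought in by lentivirus, sorting for a fluorescent marker and selection of clones. PU-H71 resistant (PUHr) cells and parental cells were labelled wild type, the former kept long term in rising amounts of the HSP90 inhibitor PU-H71 and picked as clones, the latter kept long term in the solvent DMSO. The labels do not give the number of clones in a group, so the loss of an isoform or the resistance and the origin of a clone cannot be told apart, and while the authors call the replicates independent, the labels do not say whether they were separate cultures, so p-values may measure technical spread.

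The 3 EV libraries held between 20589103 and 26216730 reads on the listed genes, those of HSP90α-KO between 19594381 and 21112564 and those of HSP90β-KO between 20495247 and 24701713. Parental libraries held between 21584840 and 24364722 reads and PUHr libraries between 21847942 and 24477692. A single read corresponds to between 0.0381 and 0.0518 counts scaled to library size (CPM), the unit of the levels below. The 2 tables were normalized apart, so levels are compared only within a table. A gene is called changed where its adjusted p from limma, taken over all tested genes, was under 0.05 and its log2 fold change was above 1 or below -1. Fold changes are on the log2 scale, with the standard error (SE) of the fit, and rest on 3 libraries against 3.

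The targeted genes were measured first. HSP90AA1, which encodes HSP90α, was at 716, 683 and 713 CPM in EV, at 92.6, 88.0 and 90.8 in HSP90α-KO and at 1218, 1190 and 1210 in HSP90β-KO. HSP90AB1, which encodes HSP90β, was at 2823, 2782 and 2812 CPM in EV, at 3267, 3310 and 3344 in HSP90α-KO and at 1939, 1909 and 1889 in HSP90β-KO. Each knockout group thus had lower RNA of its own target in every library, and neither target was absent. Both genes were lower in PUHr than in parental cells, by a log2 fold change of -0.13 for HSP90AA1 and -0.24 for HSP90AB1.

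Markers of K562 cells were present. Of 8 erythroleukemia markers, 7 were in the knockout table, with a summed level of 822 CPM in EV, 774 in HSP90α-KO and 743 in HSP90β-KO, and HBE1 had no entry. In the resistance table the 8 summed to 2375 CPM in parental cells and 1662 in PUHr, and HBE1 was at 4 reads or fewer in every library. TFRC was the most abundant marker in each group.

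Which integrin chains these cells express was read from the level per kilobase of exon, to set genes of different length side by side. The length joins all annotated exons of a gene, not those of the transcript expressed, so shares and order depend on it. By CPM alone ITGA5 led in EV, at a mean of 123.9 beside 118.3 for ITGAM and 57.0 for ITGAV. In EV cells ITGAM, the alpha chain of the complement receptor Mac-1, was at 20.8 CPM per kilobase (SD 0.196) and ITGA5, the alpha chain of the fibronectin receptor, at 16.8 (SD 1.15). These levels made up 46.6% and 37.5% of the summed level of the 13 alpha chains measured. ITGAV, which binds vitronectin and other RGD ligands, and ITGA2B, the alpha chain of the platelet fibrinogen receptor, followed with 6.61% and 4.76%. Among the 5 beta chains measured, ITGB1, the common partner of most alpha chains, held 67.0% in EV and ITGB5, a partner of ITGAV, 22.0%.

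Per kilobase the order of the leading chains differed between the tables and between the groups, whereas by CPM alone ITGA5 was above ITGAM in every group. ITGA5 came first per kilobase in HSP90α-KO (41.0%) and in HSP90β-KO (48.0%), ahead of ITGAM (37.3% and 37.9%). In the resistance table ITGA5 held 50.9% of the alpha chain level in parental cells and 55.9% in PUHr, and ITGAM held 16.4% and 13.2%. In every group a single pair of alpha chains, ITGA5 and ITGAM, and a single beta chain, ITGB1, made up most of the integrin RNA per kilobase, and most of the genes that changed lay below them.

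**Figure D1:**
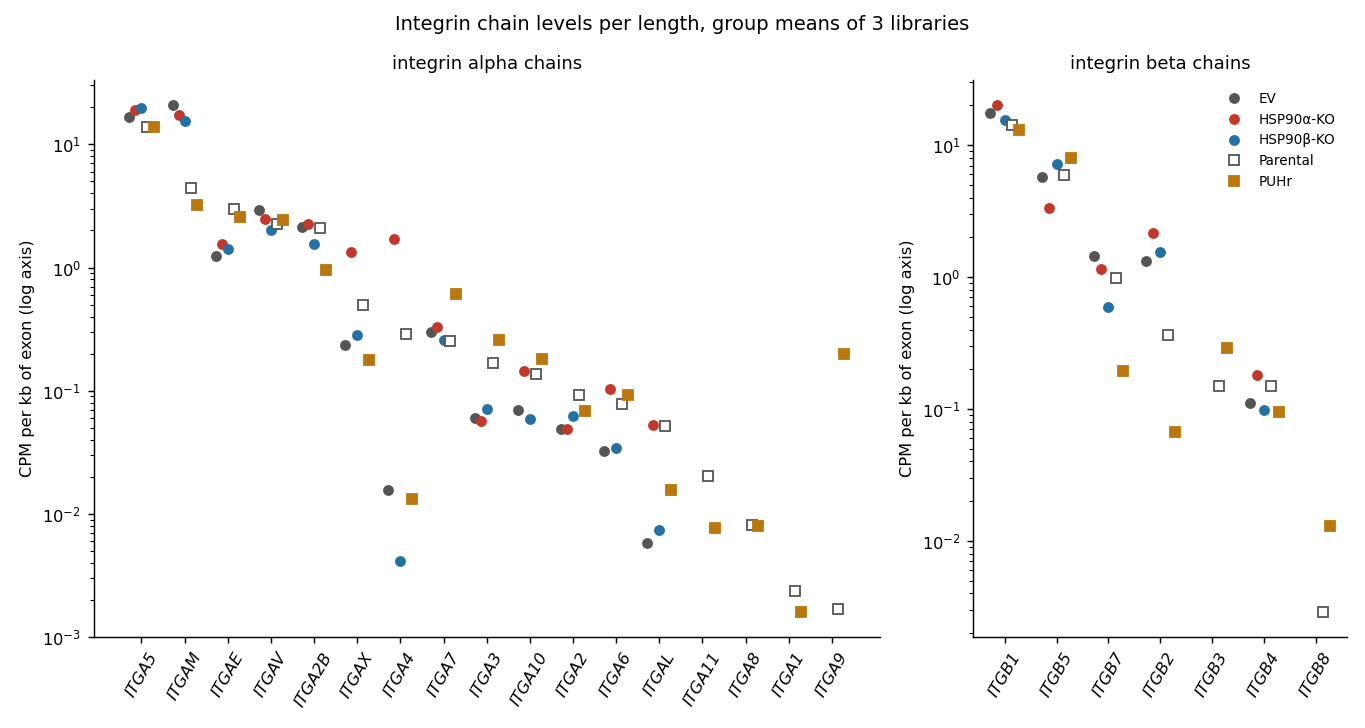
Mean level of each integrin chain in CPM per kilobase of exon (log axis) in the 5 groups of 3 libraries, ordered by the level in parental cells; a gene with no entry in the knockout table has no circle. ITGA5 and ITGAM stand at the top of the alpha chains and ITGB1 at the top of the beta chains in all groups, while ITGA4 and ITGA9 move over wide ranges.

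The HSP90α-KO comparison asks how adhesion gene expression differed in cells with lowered HSP90α. The alpha chains ITGA4, ITGAX, ITGAL and ITGA6, the adhesion molecule PECAM1 and the activator FERMT3 were higher in HSP90α-KO than in EV, and CD44 was lower. ITGAM, the most abundant leukocyte alpha chain, did not rise. Of the 28 members tested, 7 were changed, beside 10.3% of all genes tested; 6 were higher, beside 5.32% of all genes, and 1 was lower, beside 5.01%. By adjusted p alone 22 of the 28 passed, beside 54.2% of all genes. ITGA4, ITGA6, ITGAL and PECAM1 entered the test only through their HSP90α-KO libraries and so had to differ, and the count of 7 is not read as an excess over the background. Among members whose mean over all libraries of the table reached a log2 CPM of 1, 3 of 20 were changed, beside 5.81% of all genes under that filter.

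Of the 13 alpha chains tested, 4 were higher and 0 were lower in HSP90α-KO, a split without weight because ITGA4, ITGA6 and ITGAL were tested only for their HSP90α-KO level. ITGA4 (ENSG00000115232, chr2:181457202-181538940, GRCh38), the alpha chain of the receptors for VCAM1, MADCAM1 and fibronectin, had 3, 5 and 3 reads in EV, 339, 349 and 382 in HSP90α-KO and 1, 2 and 0 in HSP90β-KO. The ratio of summed reads, scaled to library size, was 111.6 for HSP90α-KO over EV, with an exact 95% counting interval from 62.1 to 224. ITGA4 was thus near the floor in EV and in HSP90β-KO and well above it in all 3 HSP90α-KO libraries; its fitted log2 fold change of 6.17 ± 0.28 (SE, adjusted p = 2.2e-16) depends on the prior count. Per kilobase it took 3.68% of the alpha chain level in HSP90α-KO, behind ITGA5, ITGAM, ITGAV and ITGA2B, against 0.0347% in EV.

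ITGAX (ENSG00000140678, chr16:31355134-31382999), the CD11c chain of myeloid cells, was at 1.47, 1.74 and 1.75 CPM in EV and at 11.3, 8.75 and 8.26 in HSP90α-KO, with 1.86, 2.18 and 1.94 in HSP90β-KO. Its log2 fold change in HSP90α-KO was 2.44 ± 0.15 (SE, adjusted p = 1.5e-13). The EV and HSP90β-KO libraries lay within a narrow band, and each HSP90α-KO library stood well above both. The neighbouring gene ITGAM on chromosome 16 went the other way, at 117, 119 and 119 CPM in EV and 102, 95.1 and 97.5 in HSP90α-KO (log2 fold change -0.27 ± 0.04, adjusted p = 3.0e-07), short of the fold change threshold.

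ITGAL, the CD11a chain of the lymphocyte receptor LFA-1, had 1, 1 and 2 reads in EV and 10, 13 and 8 in HSP90α-KO, a ratio of 8.89 with an exact counting interval from 3.14 to 34.7. ITGA6, a laminin receptor chain, had 2, 6 and 7 reads in EV and 17, 12 and 12 in HSP90α-KO, a ratio of 3.14 with an interval from 1.70 to 6.10. The fitted log2 fold changes were 2.04 ± 0.43 for ITGAL (adjusted p = 2.8e-04) and 1.40 ± 0.35 for ITGA6 (adjusted p = 1.3e-03). Both genes rested on few reads in every group, and with 0.5 CPM added before the logarithm their values were 0.87 and 0.74, under the threshold. The other 9 alpha chains ranged from -0.27 (ITGAM) to 0.93 (ITGA10, adjusted p = 1.4e-02; past both thresholds at 1.19 without EV library 3), and 4 of them, ITGA2, ITGA2B, ITGA3 and ITGA7, missed the adjusted p as well.

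No beta chain passed both thresholds in HSP90α-KO with limma, 0 of 5, while 4 of the 5 passed the adjusted p alone. ITGB5 had the lowest value, with 37.2, 39.4 and 35.2 CPM in EV and 21.5, 23.2 and 20.2 in HSP90α-KO (log2 fold change -0.78 ± 0.06, adjusted p = 3.7e-12). ITGB2, the partner of ITGAL and ITGAX, had the highest, with 9.56, 10.7 and 8.92 CPM in EV and 15.5, 16.9 and 14.6 in HSP90α-KO (0.68 ± 0.08, adjusted p = 6.9e-08). For both genes the libraries of the groups did not overlap. The median of the 5 beta chains was 0.20, beside -0.01 for all genes tested, and ITGB4, a chain of the epithelial laminin receptor, was the gene that missed the adjusted p.

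Among the 10 other molecules tested, 2 were higher and 1 was lower in HSP90α-KO. PECAM1, a homophilic adhesion molecule of platelets, leukocytes and endothelium, had 4, 2 and 2 reads in EV, 17, 24 and 18 in HSP90α-KO and 4, 2 and 1 in HSP90β-KO. The HSP90α-KO to EV ratio was 8.46, with an exact counting interval from 4.03 to 20.5, and the fitted log2 fold change 2.39 ± 0.38 (adjusted p = 6.2e-06). FERMT3 was at 2.14, 1.49 and 2.02 CPM in EV and at 4.83, 5.49 and 4.41 in HSP90α-KO, a log2 fold change of 1.35 ± 0.15 (adjusted p = 2.5e-08). Its HSP90β-KO libraries, at 3.19, 3.03 and 3.17 CPM, lay between the other groups without touching either.

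CD44 (ENSG00000026508, chr11:35138882-35232402), the hyaluronan receptor, was at 10.6, 9.93 and 9.76 CPM in EV and at 4.20, 4.04 and 3.80 in HSP90α-KO, the only changed member that was lower. Its log2 fold change of -1.31 ± 0.08 (adjusted p = 1.3e-13) stood against the region around it; with 5 CPM added before the logarithm it was -0.74, under the threshold. Of the 20 tested genes nearest to CD44 on chromosome 11, 10 on either side, 17 had a value above 0, and their median was 0.35. For the 28 members this median ran from -0.26 (ITGB1) to 0.35 (CD44), so no changed member moved with a shift of like size in its neighbours. The 7 unchanged molecules ranged from -0.44 (CD47, a signal against phagocytosis; adjusted p = 1.4e-09) to 0.86 (SELPLG, adjusted p = 4.0e-06), and ICAM2, a ligand of LFA-1, missed the adjusted p.

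Of 6 markers of monocytes and macrophages 2 were in the knockout table and 1 of them, FCGR1A, was changed in HSP90α-KO (1.26, higher), beside 10.3% of all genes; LYZ, at 0.58, missed the fold change threshold. The 2 summed to between 49.0 and 52.8 CPM in the EV libraries, between 81.7 and 86.5 in HSP90α-KO and between 37.7 and 39.6 in HSP90β-KO. LYZ was the most abundant, the defining markers CD14 and CSF1R had no entry, nor had CD68 and MARCO, and their part in the result was not tested. T cell markers, 4 of 5 in the table with CD3D the most abundant, summed to 9.22 CPM in EV and 4.77 in HSP90α-KO; CD3E and CD3G were changed to lower, CD3G to 1 read or fewer in each library, while CD5 was at 0.535 CPM in EV and 0.776 in HSP90α-KO without passing the test. Their part was not tested either. None of the 4 endothelial markers had an entry to set beside PECAM1. In bulk RNA a change in the number of cells that express a gene and a change in the RNA per cell cannot be told apart.

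**Figure D2:**
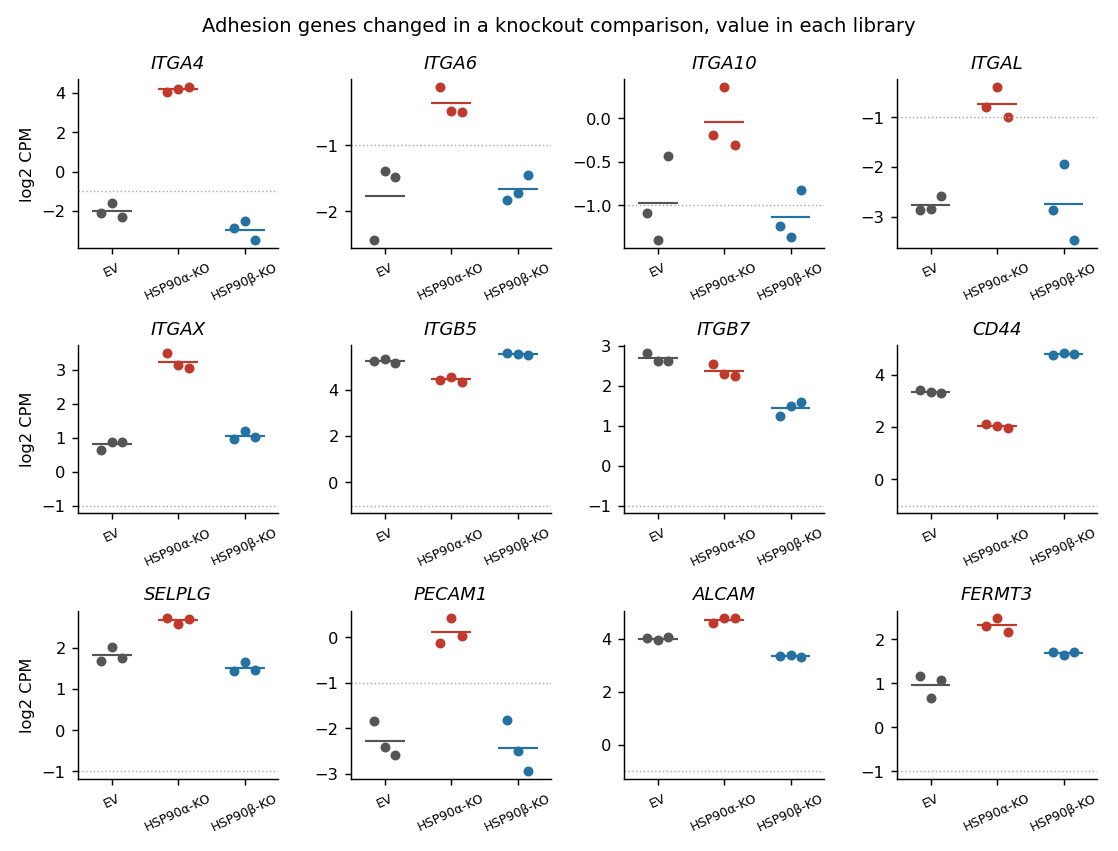
Log2 CPM of the 12 adhesion genes changed in a knockout comparison, with a point for each library and a line for the mean of 3 libraries; the dotted line marks the low-expression limit of -1, and the vertical scale differs between panels. HSP90α-KO libraries stand apart for ITGA4, ITGAX and PECAM1, which for ITGA4 and PECAM1 follows from the low-expression filter. For CD44 the 3 groups form 3 separate levels.

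The HSP90β-KO comparison asks the same of cells with lowered HSP90β, and it uses the same EV libraries. CD44 was higher and ITGB7 was lower in HSP90β-KO than in EV, and no other member was changed. Thus 2 of the 28 members were changed, beside 4.48% of all genes tested, with 1 higher beside 1.83% and 1 lower beside 2.65%, a count too small to set apart from the background. By adjusted p alone 13 of 28 passed, beside 34.4% of all genes.

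No alpha chain of the 13 tested was changed in HSP90β-KO with limma, while 5 passed the adjusted p alone. They ranged from -0.95 (ITGA4) to 0.26 (ITGAX, adjusted p = 0.19). For ITGA4, with 11 reads over the 3 EV libraries and 3 over the 3 HSP90β-KO libraries, the ratio was 0.266 with an exact counting interval from 0.0477 to 1.01. Its adjusted p was 8.5e-03, but at this depth the difference was not detectable by counting. The call turned on settings too: leaving out EV library 1, EV library 3 or HSP90β-KO library 2 gave -1.003, -1.10 and -1.17, each past both thresholds.

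ITGB7, which pairs with ITGA4 in the gut-homing receptor of lymphocytes and with ITGAE, was the changed beta chain. It was at 7.04, 6.02 and 6.06 CPM in EV, at 5.76, 4.82 and 4.67 in HSP90α-KO and at 2.29, 2.73 and 2.93 in HSP90β-KO. The log2 fold change in HSP90β-KO was -1.24 ± 0.13 (SE, adjusted p = 1.6e-08), and every HSP90β-KO library lay below every library of the other groups. With 5 CPM added before the logarithm the ITGB7 call was lost. Exons of ZNF740 on the opposite strand cover 42.3% of the exon bases of ITGB7, and although the libraries were stranded, the sources do not state the strand setting of the read counting, so reads in the shared bases are uncertain. ZNF740 itself was at a mean of 82.3 CPM in EV and 80.2 in HSP90β-KO (log2 fold change -0.04, adjusted p = 0.48). The other 4 beta chains ranged from -0.26 (ITGB4) to 0.32 (ITGB5, adjusted p = 5.2e-05).

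CD44 was at 27.0, 28.6 and 27.7 CPM in the HSP90β-KO libraries, above the 10.6, 9.93 and 9.76 of EV, a log2 fold change of 1.45 ± 0.08 (adjusted p = 5.6e-14). Its 20 neighbours had a median of 0.02 in this comparison. T cell markers summed to 9.22 CPM in EV and 18.6 in HSP90β-KO. Of the 4 tested, CD3G (1.59) and CD3D (1.26) were changed to higher, beside 1.83% of all genes, and 2 missed the adjusted p. Their part in the result was not tested. The other 9 molecules ranged from -0.65 (ALCAM, a ligand of CD6; adjusted p = 2.4e-08) to 0.72 (FERMT3, adjusted p = 4.7e-04), and 6 of the 10 missed the adjusted p. Neighbour medians ran from -0.52 around ITGAV to 0.35 around ALCAM. ITGAV, at a log2 fold change of -0.55 ± 0.04 (adjusted p = 1.2e-10), lay in a stretch of chromosome 2 where 17 of 20 neighbours were not higher; ALCAM went against its own stretch.

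The knockouts were compared directly with each other, which is the test of a difference between them. HSP90α-KO exceeded HSP90β-KO in ITGA4, PECAM1, ITGAX, ITGAL, ALCAM, ITGA6, SELPLG and ITGA10, and was below it in CD44 and ITGB5. These are 10 of 28 members, beside 12.7% of all genes tested, with 8 higher beside 7.14% and 2 lower beside 5.57%; by adjusted p alone 22 passed, beside 59.9%. Of the 8 higher members, ITGA4, ITGA6, ITGAL and PECAM1 were tested only for their HSP90α-KO level, so the count gives no excess. Among the 20 members that reached a mean log2 CPM of 1, 5 were changed, beside 7.56% of all genes that did.

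CD44 differed most among the well-expressed members, at -2.76 ± 0.08 (SE, adjusted p = 8.8e-21), because it was lower than EV in HSP90α-KO and higher than EV in HSP90β-KO. ITGB5 showed the same order of groups at a higher level, with 48.4, 45.7 and 45.4 CPM in HSP90β-KO above EV and HSP90α-KO, and a direct log2 fold change of -1.10 ± 0.06 (adjusted p = 2.0e-15). ITGB5 made up 12.3% of the beta chain level per kilobase in HSP90α-KO, 22.0% in EV and 28.7% in HSP90β-KO. In each group no library of CD44 or ITGB5 overlapped those of another group.

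ALCAM and SELPLG had the opposite order. ALCAM was at 16.02, 15.2 and 16.4 CPM in EV, 23.6, 27.1 and 27.2 in HSP90α-KO and 10.01, 10.4 and 9.82 in HSP90β-KO, and the direct log2 fold change was 1.35 ± 0.07 (adjusted p = 2.6e-15). SELPLG was at 3.09, 3.95 and 3.28 CPM in EV, 6.49, 5.91 and 6.42 in HSP90α-KO and 2.62, 3.07 and 2.65 in HSP90β-KO, with a direct value of 1.15 ± 0.13 (adjusted p = 2.5e-08). For ALCAM the 3 groups were separate, and for SELPLG the HSP90β-KO libraries lay below those of EV without overlap though their own comparison missed the adjusted p (8.7e-02).

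ITGA4 differed between the knockouts by a read ratio of 419, with an exact counting interval from 143 to 2036, and PECAM1 by a ratio of 9.91 (4.52 to 25.7). ITGAX had a direct log2 fold change of 2.18 ± 0.15 (adjusted p = 1.0e-12), ITGAL 2.03 ± 0.43 (adjusted p = 2.5e-04) and ITGA6 1.29 ± 0.35 (adjusted p = 2.2e-03). With 0.5 CPM added before the logarithm ITGAL (0.84), ITGA6 (0.71) and ITGA10 (0.67) were under the threshold. ITGA10, a collagen-binding chain, had 8, 6 and 17 reads in EV, 16, 23 and 14 in HSP90α-KO and 7, 7 and 12 in HSP90β-KO, and a direct value of 1.09 ± 0.31 (adjusted p = 3.7e-03). That call ended without HSP90α-KO library 2 (0.89) and without HSP90β-KO library 2 (0.98). ITGB7 differed between the knockouts by 0.92 ± 0.13 (adjusted p = 8.6e-07), with separate libraries but short of the fold change threshold. The remaining members ranged down to -0.48 (CD47, adjusted p = 1.7e-10).

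**Figure D3:**
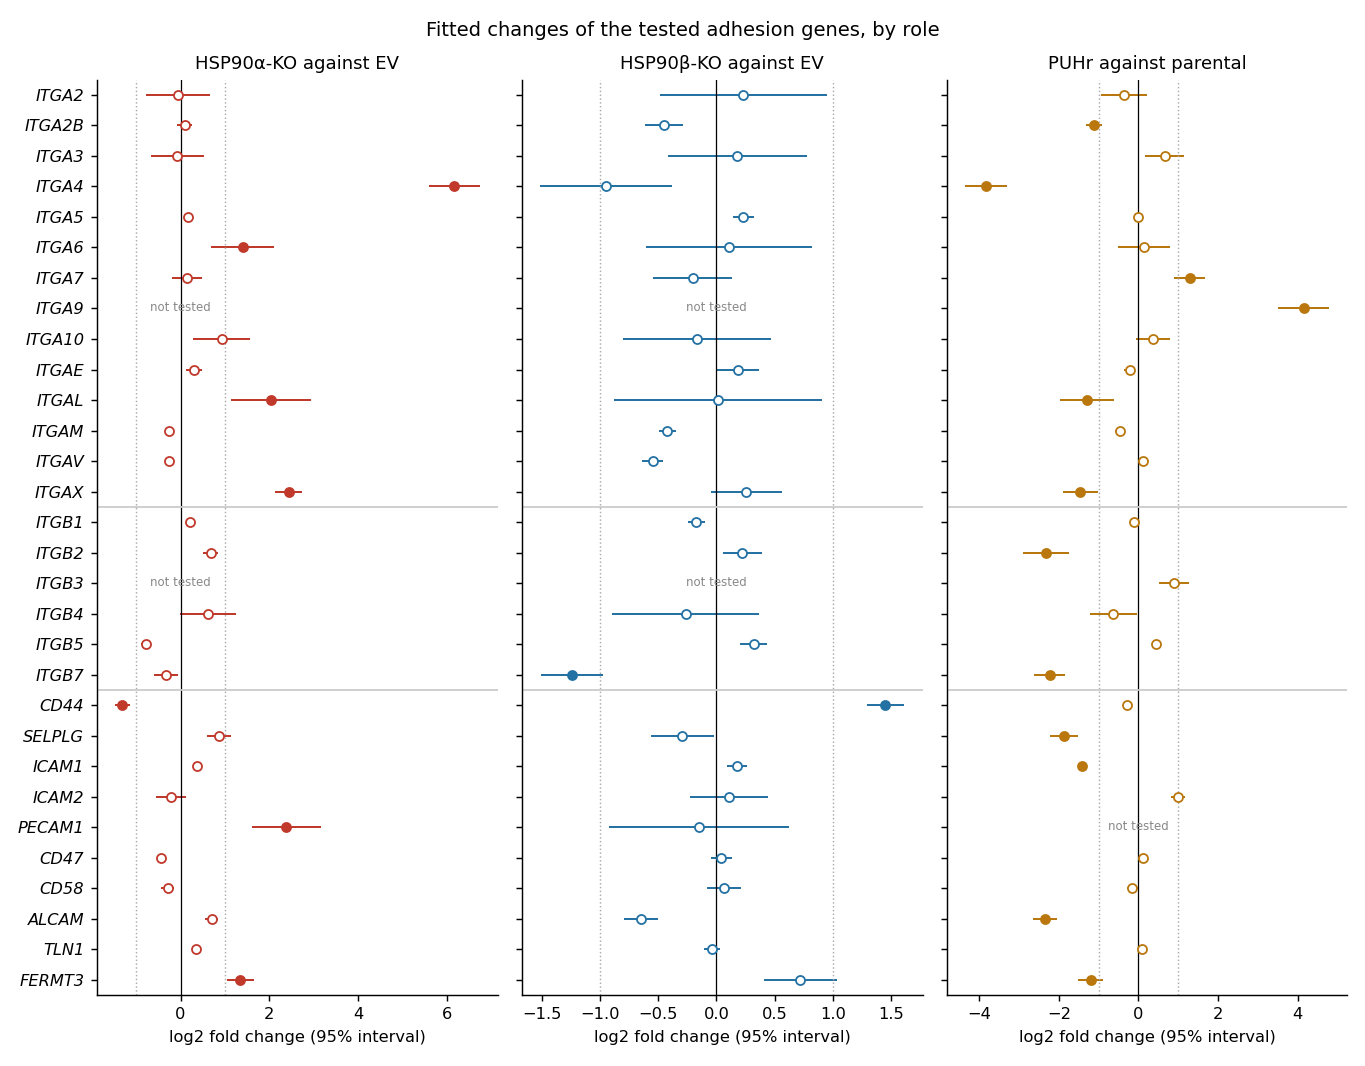
Fitted log2 fold change of each tested adhesion gene with its 95% interval (n = 3 libraries against 3), in panels for HSP90α-KO against EV, HSP90β-KO against EV and PUHr against parental, with filled points for changed genes and dotted lines at -1 and 1; the horizontal scale differs between panels. Filled points lie mainly to the right for HSP90α-KO and to the left for PUHr. For HSP90α-KO the side of ITGA4, ITGA6, ITGAL and PECAM1 follows from the low-expression filter, as does that of ITGA4, ITGAL and ITGA9 for PUHr.

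The resistance comparison asks how adhesion genes differed between PUHr and parental cells. PUHr cells had lower RNA of the integrin chains ITGA4, ITGAX, ITGAL, ITGA2B, ITGB2 and ITGB7 and of ALCAM, SELPLG, ICAM1 and FERMT3, and higher RNA of ITGA9 and ITGA7. ITGAM, ITGAE and ITGB1 were not past the fold change threshold. Of 29 members tested 12 were changed, beside 10.1% of all genes tested; 2 were higher, beside 5.37%, and 10 were lower, beside 4.69%. By adjusted p alone 22 passed, beside 51.4% of all genes. With 5 CPM added before the logarithm, which shrinks the fold change of weakly expressed genes, ICAM1 alone of the 12 was called. ITGA4 and ITGAL entered the test only through parental libraries and ITGA9 only through PUHr libraries, so these 3 had to differ and the counts carry no weight of their own. Where the mean reached a log2 CPM of 1, 8 of 20 were changed, beside 6.12% of all such genes, and no test of the list was made.

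Of the 14 alpha chains tested, 2 were higher and 4 were lower in PUHr. ITGA9 (ENSG00000144668, chr3:37452115-37823507), a receptor chain for tenascin and VCAM1, had 1, 0 and 0 reads in parental cells and 41, 40 and 37 in PUHr, a ratio of 113.9 with an exact counting interval from 20.1 to 4537. Its fitted log2 fold change of 4.15 ± 0.30 (adjusted p = 2.4e-08) depends on the prior count. ITGA9 thus went from near absence in parental libraries to nearly the same level in each PUHr library, which per kilobase was 0.818% of the alpha chain level. ITGA7, a laminin receptor chain of muscle, was at 3.13, 1.80 and 1.92 CPM in parental cells and 5.42, 6.27 and 5.03 in PUHr (1.29 ± 0.18, adjusted p = 3.1e-05), again with no overlap.

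ITGA4 was lower in PUHr, with 86, 70 and 58 reads in parental cells and 4, 2 and 4 in PUHr, a parental to PUHr ratio of 22.2 with an exact counting interval from 11.8 to 46.9. Its fitted log2 fold change was -3.83 ± 0.25 (adjusted p = 8.1e-09). Exons of CERKL on the opposite strand cover 26.4% of the exon bases of ITGA4; CERKL was at 0 reads in every library of the resistance table and had no entry in the knockout table. ITGA4 therefore stood near the floor in EV, HSP90β-KO and PUHr, and above it in HSP90α-KO and parental cells.

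ITGAX was at 3.51, 3.61 and 3.42 CPM in parental cells and at 0.964, 1.05 and 1.78 in PUHr, a log2 fold change of -1.47 ± 0.20 (adjusted p = 2.7e-05). ITGAL had 16, 10 and 9 reads in parental cells and 5, 3 and 3 in PUHr (-1.29 ± 0.32, adjusted p = 3.3e-03). With 0.5 CPM added before the logarithm ITGAL was at -0.61, under the threshold. ITGA2B was at 12.0, 12.1 and 11.5 CPM in parental cells and 6.23, 5.14 and 5.07 in PUHr (-1.11 ± 0.10, adjusted p = 1.7e-07). In each of these genes the lowest parental library was above the highest PUHr library. The other 8 alpha chains ranged from -0.47 (ITGAM, adjusted p = 6.2e-06) to 0.65 (ITGA3, adjusted p = 3.0e-02), and ITGA5, the most abundant per kilobase, was at -0.02 ± 0.04 (adjusted p = 0.72).

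Among the 6 beta chains tested, ITGB2 and ITGB7 were lower in PUHr and 0 were higher. ITGB2 had 69, 55 and 58 reads in parental cells and 12, 17 and 6 in PUHr (-2.33 ± 0.27, adjusted p = 3.8e-06). It fell together with ITGAL and ITGAX, while its most abundant partner, ITGAM, did not reach the fold change threshold. ITGB7 was at 5.11, 4.36 and 3.61 CPM in parental cells and 0.683, 0.920 and 0.979 in PUHr (-2.23 ± 0.19, adjusted p = 1.3e-07), while ZNF740, which shares bases with it, was at -0.17. The partners ITGA4 and ITGB7 were thus both near or under 1 CPM in all PUHr libraries.

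The remaining beta chains ranged from -0.63 (ITGB4, adjusted p = 7.3e-02) to 0.89. The upper end was ITGB3, the partner of ITGA2B in platelets, with 21, 25 and 24 reads in parental cells and 50, 47 and 43 in PUHr (0.89 ± 0.18, adjusted p = 7.1e-04), short of the fold change threshold though without overlap. A gene on the same strand, ENSG00000259753, covers 33.2% of the exon bases of ITGB3, so its count is uncertain. ITGB5 was at 40.8, 37.8 and 38.0 CPM in parental cells and 51.8, 52.7 and 52.6 in PUHr (0.43 ± 0.04, adjusted p = 5.6e-07), and its share of the beta chain level per kilobase was 27.5% in parental cells and 37.1% in PUHr. ITGB1 had a share of 64.9% and 59.8%.

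Of the 9 other molecules tested, 4 were lower and 0 were higher in PUHr. ALCAM was at 5.96, 5.62 and 5.86 CPM in parental cells and 1.12, 1.13 and 0.979 in PUHr (-2.35 ± 0.14, adjusted p = 3.3e-09). SELPLG was at 6.13, 6.12 and 5.53 CPM in parental cells and 1.25, 1.51 and 2.00 in PUHr (-1.87 ± 0.16, adjusted p = 2.1e-07). ICAM1, the counter-receptor of the ITGB2 integrins, was at 36.5, 38.2 and 36.5 CPM in parental cells and 13.8, 13.7 and 13.9 in PUHr (-1.42 ± 0.05, adjusted p = 9.7e-12). It was the most abundant of the 12 changed members, and its libraries within a group differed by little beside the gap between groups.

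FERMT3 was at 5.24, 4.70 and 5.53 CPM in parental cells and at 1.93, 2.72 and 2.00 in PUHr (-1.20 ± 0.15, adjusted p = 9.0e-06), whereas TLN1, the most abundant member by CPM in every group, was at 0.08 ± 0.03 (adjusted p = 2.0e-02). The unchanged molecules ranged from -0.28 (CD44, adjusted p = 1.3e-04) to 0.99. CD44, which separated the knockouts, was at 47.1, 49.6 and 46.4 CPM in parental cells and 38.0, 41.6 and 38.4 in PUHr. The upper end was ICAM2, at 6.72, 7.09 and 7.74 CPM in parental cells and 14.7, 13.4 and 14.9 in PUHr (0.99 ± 0.08, adjusted p = 1.2e-07), which passed the fold change threshold without parental library 3 (1.04) or PUHr library 2. Exons of PRR29 on the opposite strand cover 26.8% of the exon bases of ICAM2, and PRR29 was higher in PUHr (1.23 ± 0.18, adjusted p = 5.3e-05), so the ICAM2 value is uncertain. An antisense RNA, ICAM4-AS1, likewise covers 23.6% of the exon bases of ICAM1.

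**Figure D4:**
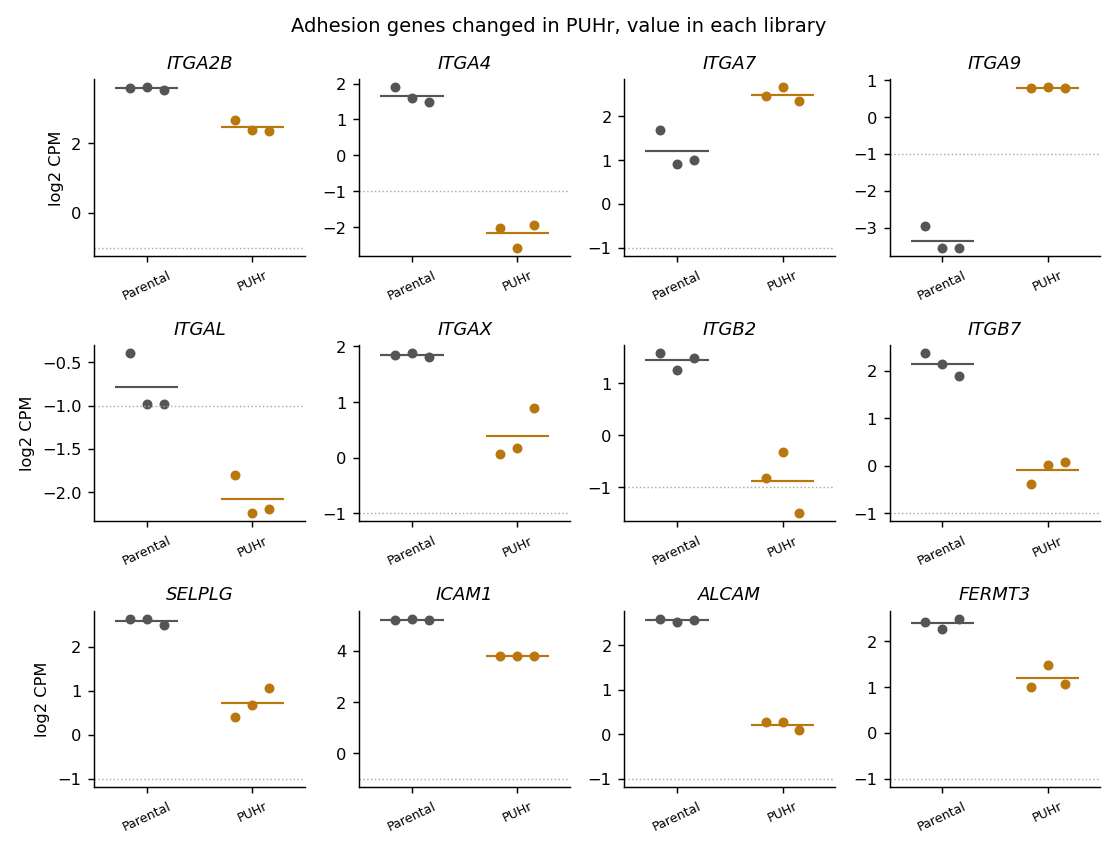
Log2 CPM of the 12 adhesion genes changed in PUHr, with a point for each library and a line for the mean of 3 libraries; the dotted line marks the low-expression limit of -1, and the vertical scale differs between panels. Parental and PUHr libraries do not overlap, which for ITGA4, ITGAL and ITGA9 follows from the low-expression filter.

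Members below the filter in the resistance table were ITGA1, ITGA8, ITGA11, ITGB8, ICAM3, PECAM1, CD99 and JAM3. ITGA1, ITGA8, ICAM3 and CD99 had at most 3 reads in each library, ITGA11 between 1 and 7, ITGB8 between 1 and 7, PECAM1 between 1 and 10 and JAM3 between 1 and 12. CD99 had 0 reads in all libraries, as had each of the 14 other genes of the pseudoautosomal stretch of chromosome X, so the table gives no measurement of CD99. ITGA1, ITGA8, ITGA9, ITGA11, ITGB3, ITGB8, ICAM3, CD99 and JAM3 had no entry in the knockout table, which therefore says nothing about ITGA9.

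Along the chromosomes the changed members of PUHr stood alone. Over the 29 members the median log2 fold change of the 20 tested neighbours ran from -0.08 (ITGAM) to 0.31 (ITGA3), smaller in size than the value of each changed member. The 4 endothelial markers summed to 0.390 CPM in parental cells and 3.03 in PUHr, with KDR the most abundant. KDR and VWF, the 2 tested, were higher but entered the test only through PUHr and so had to differ, TEK was below the filter and CDH5 was at 0 reads. Their part in the result was not tested. Monocyte and macrophage markers summed to 29.7 CPM in parental cells and 24.9 in PUHr, all 6 being in the table, with LYZ the most abundant and CD68 and MARCO at 3 reads or fewer.

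Because several members fell together in PUHr, their promoters were looked up, and 4 are shown whose stretch before the start of the gene holds no annotated exon; they were chosen after the values were seen. The set of RefSeq promoters used (GRCh38.p14, full-length entries only) held 25 of the 37 members. Those without an entry in this set were ITGA3, ITGA7, ITGA9, ITGAL, ITGAX, ITGB2, ITGB3, ITGB4, SELPLG, ICAM2, PECAM1 and JAM3. Each sequence runs 5′ to 3′ from 250 to 51 bases before the start, 200 bases in all: ITGA2B on the minus strand (chr17:44389700-44389899), ITGB7 on the minus strand (chr12:53207302-53207501), ICAM1 on the plus strand (chr19:10270870-10271069) and ALCAM on the plus strand (chr3:105366659-105366858). Capitals mark a motif.
ITGA2B: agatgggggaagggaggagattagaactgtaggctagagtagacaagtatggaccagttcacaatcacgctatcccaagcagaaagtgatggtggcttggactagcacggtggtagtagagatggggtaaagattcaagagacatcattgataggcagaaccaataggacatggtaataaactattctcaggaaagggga
ITGB7: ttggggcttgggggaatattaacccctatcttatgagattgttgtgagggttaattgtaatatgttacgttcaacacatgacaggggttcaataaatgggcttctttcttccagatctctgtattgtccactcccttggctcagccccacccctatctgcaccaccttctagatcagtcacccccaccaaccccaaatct
ICAM1: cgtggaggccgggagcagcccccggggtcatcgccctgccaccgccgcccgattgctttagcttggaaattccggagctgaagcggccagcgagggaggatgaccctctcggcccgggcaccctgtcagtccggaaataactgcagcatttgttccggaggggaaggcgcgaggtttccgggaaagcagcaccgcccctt
ALCAM: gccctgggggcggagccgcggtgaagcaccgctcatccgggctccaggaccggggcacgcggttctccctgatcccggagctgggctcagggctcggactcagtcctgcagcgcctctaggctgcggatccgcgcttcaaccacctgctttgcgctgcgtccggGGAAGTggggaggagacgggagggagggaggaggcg
The motifs searched, on both strands, were GGAAGT of the ETS family, TGTGGT of the RUNX family, AGATAA of the GATA family and, for the same family, TGATAA, which overlaps it in the letters GATAA. Among these 4 promoters only ALCAM held a match, a GGAAGT. Of the 25 members, 3 held GGAAGT (ITGAV, ITGB1 and ALCAM), a motif found in 13.9% of all 35116 promoters. TGTGGT (8.99% of all promoters), AGATAA (7.62%) and TGATAA (5.66%) were found in 0 of 25 members. A match is a description of letters, not a site or a cause, and no match says only that these letters are not in this window.

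The genes around the integrins were counted from lists of further chains, adaptors, ligands and selectin-related genes. Of 3 other integrin chains, ITGBL1, a secreted protein with integrin beta-like repeats, was lower in every comparison. It had 117, 114 and 143 reads in EV, 4, 2 and 2 in HSP90α-KO and 41, 62 and 48 in HSP90β-KO, with log2 fold changes of -4.67 ± 0.21 and -1.32 ± 0.21 against EV. In the resistance table it had 64, 71 and 55 reads in parental cells and 5, 6 and 11 in PUHr (-2.89 ± 0.26). The adjusted p values were 3.8e-16, 1.8e-05 and 2.7e-07.

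Integrin adaptors and signalling genes, 43 in the list, were 34 tested in the knockout table: 5 were higher (beside 5.32% of all genes) and 1 lower (beside 5.01%) in HSP90α-KO, and 0 were changed in HSP90β-KO with limma (beside 4.48%), where 14 passed the adjusted p alone (beside 34.4%). FERMT2 (kindlin-2), the relative of FERMT3 in adherent cells, was at 1.66, 1.40 and 2.097 CPM in EV and 41.3, 39.8 and 42.1 in HSP90α-KO (4.53 ± 0.13, adjusted p = 1.8e-20). FYB1, an adaptor that links immune receptors to integrin activation, was at 7.32, 7.57 and 8.16 CPM in EV and 104.8, 104.6 and 111.1 in HSP90α-KO (3.78 ± 0.07, adjusted p = 2.8e-25). Its partner SKAP2 was lower (-1.03 ± 0.06, adjusted p = 8.4e-14). Between the knockouts 4 of these genes were higher and 2 lower in HSP90α-KO, beside 7.14% and 5.57% of all genes, the lower ones being SKAP2 (-1.66) and TLN2 (-1.16).

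In PUHr 6 of the 35 adaptors tested were higher and 1 was lower, beside 5.37% and 4.69% of all genes. FERMT2 was at 1.61, 1.64 and 1.59 CPM in parental cells and 20.9, 20.03 and 19.4 in PUHr (3.57 ± 0.10, adjusted p = 5.6e-13). Kindlin-2 RNA was thus higher and kindlin-3 RNA lower in PUHr, whereas both were higher in HSP90α-KO than in EV. TNS3, which binds beta chain tails, had a value of 3.02 ± 0.33 (adjusted p = 2.2e-06) on at most 1 read in each parental library; it entered the test only through PUHr and so had to differ. FYB1 was the lower gene, at -2.22 ± 0.19 (adjusted p = 1.4e-07).

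Ligands were fewer in the table. Of 45 extracellular ligands 19 were tested in the knockout table, and 2 were higher and 2 lower in HSP90α-KO, beside 5.32% and 5.01% of all genes. FN1 (fibronectin), a ligand of the ITGA4 and ITGA5 receptors, was at 298.1, 292.5 and 293.3 CPM in EV, 707.6, 691.2 and 711.2 in HSP90α-KO and 171.0, 174.4 and 171.0 in HSP90β-KO. Its log2 fold change in HSP90α-KO was 1.26 ± 0.03 (adjusted p = 6.4e-23). COL5A1 (1.35 ± 0.19) was the other higher ligand and COL4A2 (-3.20 ± 0.17) and LAMB3 (-2.48 ± 0.37) the lower ones. The integrin ligand MADCAM1, at a mean of 2.63 CPM in EV, 2.05 in HSP90α-KO and 1.83 in HSP90β-KO, was not past both thresholds in any comparison. VCAM1 was not tested, with 1 read or fewer per library in the resistance table and no entry in the knockout table.

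HSP90β-KO had 4 of the 19 ligands higher (beside 1.83% of all genes), led by VCAN (3.23 ± 0.45) and COL5A1 (2.28 ± 0.19), and 2 lower (beside 2.65%), COL6A2 (-1.46 ± 0.38) and CCN1 (-1.005 ± 0.16). VCAN rested on 0, 1 and 0 reads in EV against 23, 17 and 22, and it entered the test only through HSP90β-KO and so had to differ. Between the knockouts 3 ligands were higher in HSP90α-KO, led by FN1 (2.03 ± 0.03), and 5 lower, beside 7.14% and 5.57%. In PUHr 6 of the 26 ligands tested were higher, led by LAMA3 (2.90 ± 0.11) and VWF (2.28 ± 0.30), and 6 were lower, led by COL1A2 (-4.63 ± 0.30) and COL5A1 (-4.03 ± 0.35), beside 5.37% and 4.69% of all genes. VWF, VTN and COL6A2 entered that test only through PUHr, and COL1A2 and COL5A1 only through parental cells, so these had to differ and the counts carry no weight. FN1 was at a mean of 202.9 CPM in parental cells and 82.5 in PUHr, the opposite direction to HSP90α-KO against EV. Ligands thus moved in both directions in every comparison.

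Selectins and the genes that modify PSGL-1 bear on the ligand function of SELPLG. Of 14 tested in the knockout table, GCNT1 and TPST1 were higher (beside 5.32% of all genes) and C1GALT1C1 was lower (beside 5.01%) in HSP90α-KO. In HSP90β-KO 0 were changed with limma (beside 4.48%) and 5 passed the adjusted p alone (beside 34.4%). GCNT1, which builds the core 2 O-glycans of PSGL-1, had 0, 1 and 2 reads in EV and 11, 14 and 13 in HSP90α-KO (2.51 ± 0.43, adjusted p = 1.7e-05). TPST1, a tyrosine sulfotransferase, had 2, 2 and 3 reads in EV and 9, 23 and 21 in HSP90α-KO (2.27 ± 0.39, adjusted p = 2.2e-05). Few reads stood behind both, and both entered the test only through HSP90α-KO and so had to differ, which leaves their count without weight beside the background. C1GALT1C1, the chaperone of the core 1 O-glycan enzyme, had 1408, 1306 and 1749 reads in EV and 553, 521 and 609 in HSP90α-KO (-1.21 ± 0.05, adjusted p = 5.1e-17), in a stretch of chromosome X where the 20 neighbours had a median of -0.73. Between the knockouts 4 of these genes were higher and 1 was lower in HSP90α-KO, beside 7.14% and 5.57%. In PUHr 1 of 13 was changed, beside 10.1%, ST3GAL6 (1.36 ± 0.13, adjusted p = 4.4e-07).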

How the data were processed

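RNA-seq of K562 cells was analysed from 2 tables with 3 libraries per group; exome, array, protein and drug data of the study were not analysed here. According to the authors, RNA STAR placed the reads on GRCh38, featureCounts assigned them to genes and edgeR scaled each table. Deposited values are in log2 CPM, with a prior of about 2 reads. Whole reads were recovered from the deposited log2 values, with a largest deviation of 1.4e-05 reads. Libraries held between 19594381 and 26216730 reads on genes. Of the tables, 30 and 114 entries had no gene identifier and were dropped. DSMO in the column names of parental libraries was taken for DMSO.

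A gene was tested if 3 libraries or more reached a log2 CPM of -1. Fold changes were fitted by limma 3.58.1 under R 4.3.3 (lmFit, contrasts.fit, eBayes with trend), as 1 fit per table without covariates, with Benjamini-Hochberg adjustment over all tested genes. The steps were tested on simulated data. Read ratios are sums over 3 libraries scaled to library size, with exact 95% Clopper-Pearson intervals, which cover counting error only. Exon lengths and overlaps came from GENCODE, promoters from RefSeq.

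The members and further lists were chosen with earlier results of these data known. Named genes were all changed members, the ends of the range of the others, the targeted genes, and in each further list up to 2 largest rises and falls; those outside this rule, such as ITGAM, VCAM1 and TLN1 in single comparisons, were chosen after their values were seen. A planned scan of protein tails was not run. Alternatives covered the filter, 0.5 or 5 CPM added, quantile and median scaling, voom on recovered reads, a replicate block, fits of 6 libraries and each library left out in turn.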

Additional observations from a re-analysis of the deposited data

Results flagged for a closer look

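CD44 was marked for a closer look because the knockouts moved it in opposite directions from the same EV libraries: it was lower in every HSP90α-KO library and higher in every HSP90β-KO library than in any EV library. The mark also required the direct contrast to pass the adjusted p, so that contrast gives the size of the difference and no separate support. In it HSP90α-KO was below HSP90β-KO by a log2 fold change of -2.76 (limma, adjusted p = 8.8e-21). The sums over 3 libraries were 238 reads in HSP90α-KO, 684 in EV and 1936 in HSP90β-KO, and the value does not rest on few reads; with 5 CPM added before the logarithm it was -1.86, while HSP90α-KO against EV was -0.74, under the threshold. The 20 genes nearest to CD44 had a median of 0.41 in the same contrast, opposite in sign to CD44. T cell markers had the same order of groups, with sums of 4.77 CPM in HSP90α-KO, 9.22 in EV and 18.6 in HSP90β-KO. Of the 4 tested in the direct contrast, 3 were changed to lower and 1 was higher by adjusted p alone. Their part in the CD44 result was not tested. Whether the isoform or the origin of a clone lies behind the CD44 difference cannot be told apart.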

How the results depend on the processing

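The number of changed members depended on how much weight the settings gave to low values. Where the mean had to reach a log2 CPM of 1, which tests fewer genes, the count went from 7 to 3 in HSP90α-KO against EV and from 10 to 5 between the knockouts, because ITGA4, ITGA6, ITGAL and PECAM1 (and ITGA10 between the knockouts) were no longer tested; in PUHr it went from 12 to 8. With 0.5 CPM added before the logarithm it was 5 in HSP90α-KO, 7 between the knockouts and 11 in PUHr. With 5 CPM added before the logarithm, which shrinks the fold change of weakly expressed genes, the count went to 2 in HSP90α-KO (lost were CD44, FERMT3, ITGA6, ITGAL and PECAM1), to 1 from 2 in HSP90β-KO (ITGB7 lost), to 4 between the knockouts and to 1 in PUHr, where ICAM1 alone was called. Leaving out each library in turn gave between 7 and 8 changed members in HSP90α-KO, 2 and 3 in HSP90β-KO, 9 and 11 between the knockouts and 12 and 13 in PUHr. With the replicate block the counts were 7, 2, 10 and 12; replicate numbers do not pair the libraries, since residuals of equal number correlated between -0.05 and 0.04. Under voom, ITGA4 joined the changed members of HSP90β-KO at -1.74. The scalings moved the median of all genes by at most 0.05. Over single genes and settings, 591 values kept their direction and their side of the thresholds, 31 lost the call, 9 gained it and 0 reversed. At 0 to 5 reads per library, as for ITGA4, ITGAL and ITGA9 in their low groups, depth limits the size of a fold change, and where both groups are this low its direction too.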

Other observations

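Markers of other blood and stromal cells stood at low levels beside the K562 markers. T cell markers, of which CD3D was the most abundant, summed to 9.22 CPM in EV, 4.77 in HSP90α-KO and 18.6 in HSP90β-KO. CD3G and CD3D were higher in HSP90β-KO than in EV (log2 fold changes 1.59 and 1.26, limma adjusted p = 2.2e-04 and 6.4e-10). In the resistance table the T cell markers summed to 11.001 CPM in parental cells and 8.59 in PUHr. Megakaryocyte markers summed to 5.99, 4.20 and 3.94 CPM in the knockout table and to 6.92 in parental cells and 7.32 in PUHr, with PF4 and GP9 at 3 reads or fewer, while in PUHr PPBP (1.97) and GP6 (1.79; tested only through its PUHr libraries) were higher and TUBB1, the most abundant there, was at 4.17 CPM in parental cells and 2.72 in PUHr (-0.61, short of the fold change threshold). Of the fibroblast markers, COL1A1 alone was in the knockout table, at 2.03, 2.42 and 1.47 CPM in EV, HSP90α-KO and HSP90β-KO, and the 5 summed to 10.1 CPM in parental cells and 5.87 in PUHr, where COL1A2, tested only through its parental libraries, was lower and COL1A1, at 3.84 CPM in parental cells and 5.17 in PUHr, was not. Of the 7 K562 markers tested, HBG2 was changed to lower in HSP90α-KO against EV (-1.22, limma adjusted p = 1.5e-10), beside 5.01% of all genes. By adjusted p alone 3 more were lower and 2, GATA1 (0.18) and KLF1 (0.24), were higher. The median of the 7 was -0.40, beside -0.01 for all genes tested.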
